A study of Homo sapiens with 12 samples.

Results

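Autophagy and lysosome genes, 37 in number, were followed through HepG2, an established human hepatoma cell line. They were chosen from textbook knowledge by symbol: 19 act in building the autophagosome, 15 encode lysosomal enzymes, membrane proteins and carriers, and 3 are regulators. All 37 had a probe set with a single annotated symbol among the 18417 genes measured, and each was read from its brightest probe set. ULK2, with values from 3.96 to 4.34 on the log2 scale, lay under the level of 4.58 used to leave out dim genes, so 36 were tested among 13813 genes.

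One HepG2 line expressed a hairpin RNA targeting p53 (sh-p53, the p53-hairpin line) and another a non-relevant hairpin (sh-con, the control line). Both were exposed for 24 h to DMSO (the solvent), to Nutlin at 10 uM or to AICAR at 0.5 mM. Nutlin frees p53 from its ubiquitin ligase MDM2, and AICAR is a compound that switches on AMPK, the kinase that senses low energy. Line and treatment gave 6 groups of 2 arrays, from cells plated as biological duplicates. With a single line for each hairpin in the labels, an effect of the hairpin and any other difference of these lines cannot be told apart. The p-values reflect how far duplicate cultures spread and nothing more.

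Autophagy encloses cytoplasm in a double membrane, the autophagosome, which fuses with a lysosome whose acid hydrolases digest the content. AMPK and mTORC1 set its rate by phosphorylating the ULK1 kinase complex. TFEB and TFE3 drive transcription of many lysosomal and some autophagy genes through a palindromic site, the CLEAR element. p53 is known to induce autophagy-linked genes, among them DRAM1. Transcript levels measure the supply of parts and not the flux through the pathway.

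The CLEAR site was looked for in the members' promoters, because it is known from promoters of lysosomal genes. Windows of 300 bases, from 250 before to 50 after the gene start, were available from RefSeq (GRCh38.p14) for 31 members and searched on both strands. The core 8-mer TCACGTGA lay in 4 of 10 lysosomal windows, in 0 of 18 autophagosome windows and in 0 of 3 regulator windows, against 1.04% of all 27305 windows. The full CLEAR 10-mer, which is the 8-mer with G before it and C after it, lay in the MCOLN1 window alone among the members and in 0.381% of all windows. The E-box hexamer CACGTG, which lies within both, occurred in 6 of 10 lysosomal and 1 of 18 autophagosome windows (ATG14), against 7.43% of all. These are matches of letters and not measured sites. A p53 decamer, the unit that the p53 response element repeats, was found in the windows of GABARAPL1 and NEU1, 2 of 31 members or 6.45%, against 6.54% of all windows.

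The stretches with the core 8-mer are shown with it in capitals, 5′ to 3′ on the gene's strand. The NEU1 stretch is shown with its E-box hexamer in capitals because NEU1 had the largest rise with AICAR among the members. NEU1 was thus picked by its response. The hexamer without the 8-mer lay also in the CTSD and ATG14 windows, which are not shown. Neither CTSD nor ATG14 was called with AICAR against DMSO in either line. CTSA lies on the plus strand (chr20:45891283-45891334), LAMP1 on the plus strand (chr13:113297184-113297244), MCOLN1 on the plus strand (chr19:7522556-7522623), ATP6V0D1 on the minus strand (chr16:67481184-67481243) and NEU1 on the minus strand (chr6:31862916-31862973), each within the window searched.
CTSA: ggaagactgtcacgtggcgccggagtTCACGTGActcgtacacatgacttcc
LAMP1: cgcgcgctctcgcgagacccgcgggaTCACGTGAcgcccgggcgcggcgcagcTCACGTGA
MCOLN1: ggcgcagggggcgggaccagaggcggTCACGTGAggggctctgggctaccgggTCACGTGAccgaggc
ATP6V0D1: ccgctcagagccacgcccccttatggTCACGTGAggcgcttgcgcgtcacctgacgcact
NEU1: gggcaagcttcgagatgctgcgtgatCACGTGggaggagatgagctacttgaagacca

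LAMP1 and MCOLN1 each carried the 8-mer at 2 places, and CTSA and ATP6V0D1 at 1. NEU1 rose with AICAR in both lines, MCOLN1 and CTSA rose with AICAR in sh-p53, LAMP1 rose with Nutlin in sh-con, and ATP6V0D1 passed in none of the 9 comparisons tested. The calls of CTSA and LAMP1 were lost after median centring and with any 1 of the 4 arrays left out, and MCOLN1 with AICAR in sh-con stood at 0.37 ± 0.15 (adjusted p = 0.0572). Differences between these 5 genes were not tested. No array measured binding at these sequences.

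Across genes, Pearson r between duplicates was 0.983 to 0.994. Of 13 hepatocyte markers 12 were measured, with mean levels from 10.79 to 12.80 on the log2 scale. All 4 endothelial markers lay below the level for dim genes, as did 2 of the 4 measured leukocyte markers and 2 of 5 fibroblast markers. CD14, a leukocyte marker that hepatocytes also make, rose by 0.92 ± 0.15 with Nutlin and by 0.93 ± 0.15 with AICAR in sh-con. With AICAR in sh-p53 both tested leukocyte markers rose, CD14 by 0.48 ± 0.15 and CSF1R by 0.49 ± 0.16 (adjusted p = 0.018 and 0.027). Of the 12 hepatocyte markers, 1 (TTR) rose with each compound in sh-con. The log2 of the summed leukocyte markers ran from 6.47 to 6.69 in sh-con DMSO, 7.03 to 7.11 in sh-con Nutlin, 6.99 to 7.25 in sh-con AICAR, 6.44 to 6.47 in sh-p53 DMSO, 6.55 to 6.79 in sh-p53 Nutlin and 6.84 to 6.87 in sh-p53 AICAR. The part of these transcripts in the results was not tested. CDKN1A, the cell cycle inhibitor gene used as a check of the hairpin labels because the targeted transcript was not analysed here, was lower in both sh-p53 arrays than in both sh-con arrays under every treatment. It still rose in sh-p53, 2.62-fold with Nutlin and 3.39-fold with AICAR, against 7.18-fold and 4.81-fold in sh-con. MDM2, which p53 also induces, rose with Nutlin 3.01-fold in sh-con and 2.49-fold in sh-p53, and the difference of these responses did not pass (adjusted p = 0.481).

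Nutlin in sh-con raised 13 of the 36 tested members and lowered 3 (limma, Benjamini-Hochberg adjusted p under 0.05 over all genes), while 20 did not pass. Members called made up 44.4%, against 30.3% of all genes, and those called higher were 13 of 36 against 11.3% of all genes, with lower calls at 18.9% of all. The median log2 fold change of the members was 0.17, against 0.01 for all genes. ATG4A, SQSTM1, CTSB, GABARAPL2 and CTSD rose and GLA fell under every alternative setting and with any single array left out. The other 10 calls were lost in at least 1 of these. Of the sh-con arrays, leaving out DMSO array 1 gave 8 calls, DMSO array 2 gave 9, Nutlin array 1 gave 9 and Nutlin array 2 gave 9, and the share of all genes called fell to 14.9%, 22.8%, 24.2% and 15.8% in the same order. With each array centred on its median, 7 members were higher and 3 lower. Quantile normalisation again gave 17 higher and 3 lower, where 29.8% of all genes were called.

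In sh-p53, none of the 36 members passed with Nutlin by limma, where an unadjusted p under 0.05 was met by 1 higher and 1 lower, and 0.0796% of all genes were called. The members' log2 fold changes lay between -0.37 and 0.36, with a median of 0.07 against -0.02 for all genes. Nutlin and AICAR responses of a line share its DMSO arrays, so their values are given side by side. The difference of the Nutlin response between the lines, tested as an interaction, passed for SQSTM1 alone, 1 of 36 or 2.78%, against 7.4% of all genes (4.67% higher and 2.73% lower). It was lower in sh-p53 by 0.67 ± 0.20 (adjusted p = 0.048). An unadjusted p under 0.05 by limma for this difference was met by 1 member higher in sh-p53 and 6 lower. For the other 15 members called in sh-con, a difference of response between the lines did not pass, with the lowest adjusted p at 0.0521 for ATG4A. After quantile normalisation again 5 members passed, all lower in sh-p53, where 9.25% of all genes were called. Between the lines in DMSO none of the 36 members passed by limma (unadjusted p under 0.05 in 0 higher and 1 lower), where 0.644% of all genes were called. The members' differences there ranged from -0.31 for ATP6V0D1 to 0.21 for ATG14.

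AICAR raised 7 members and lowered 3 in sh-con, and raised 11 and lowered 4 in sh-p53. The shares called were 27.8% and 41.7%, against 37.8% of all genes in each line. Those higher made up 14.6% and 16.2% of all genes, and those lower 23.2% and 21.6%. NEU1 and MAP1LC3B rose and WIPI1 fell in both lines, under every alternative setting and with any single array left out. No member's AICAR response differed between the lines by limma (unadjusted p under 0.05 in 0 higher and 1 lower), where 1.01% of all genes were called. Centring each array on its median shifted the log2 fold changes of all genes by a median of -0.141 in sh-con and -0.152 in sh-p53. It then gave 5 members higher and 4 lower in sh-con, and 4 higher and 7 lower in sh-p53, while among all genes called the share higher went from 38.7% to 22% in sh-con, from 42.8% to 23.1% in sh-p53 and from 30% to 16.9% for the difference between the lines. Quantile normalisation again gave 14 higher and 2 lower in sh-con, so that members called went from 27.8%, under the 37.8% of all genes, to 44.4%, over the 39.1% of all genes under that setting. Leaving out DMSO array 1 gave 6 calls in sh-con. In sh-p53, leaving out DMSO array 1 gave 6, and AICAR array 2 gave 9 (4 higher and 5 lower).

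**Figure D1:**
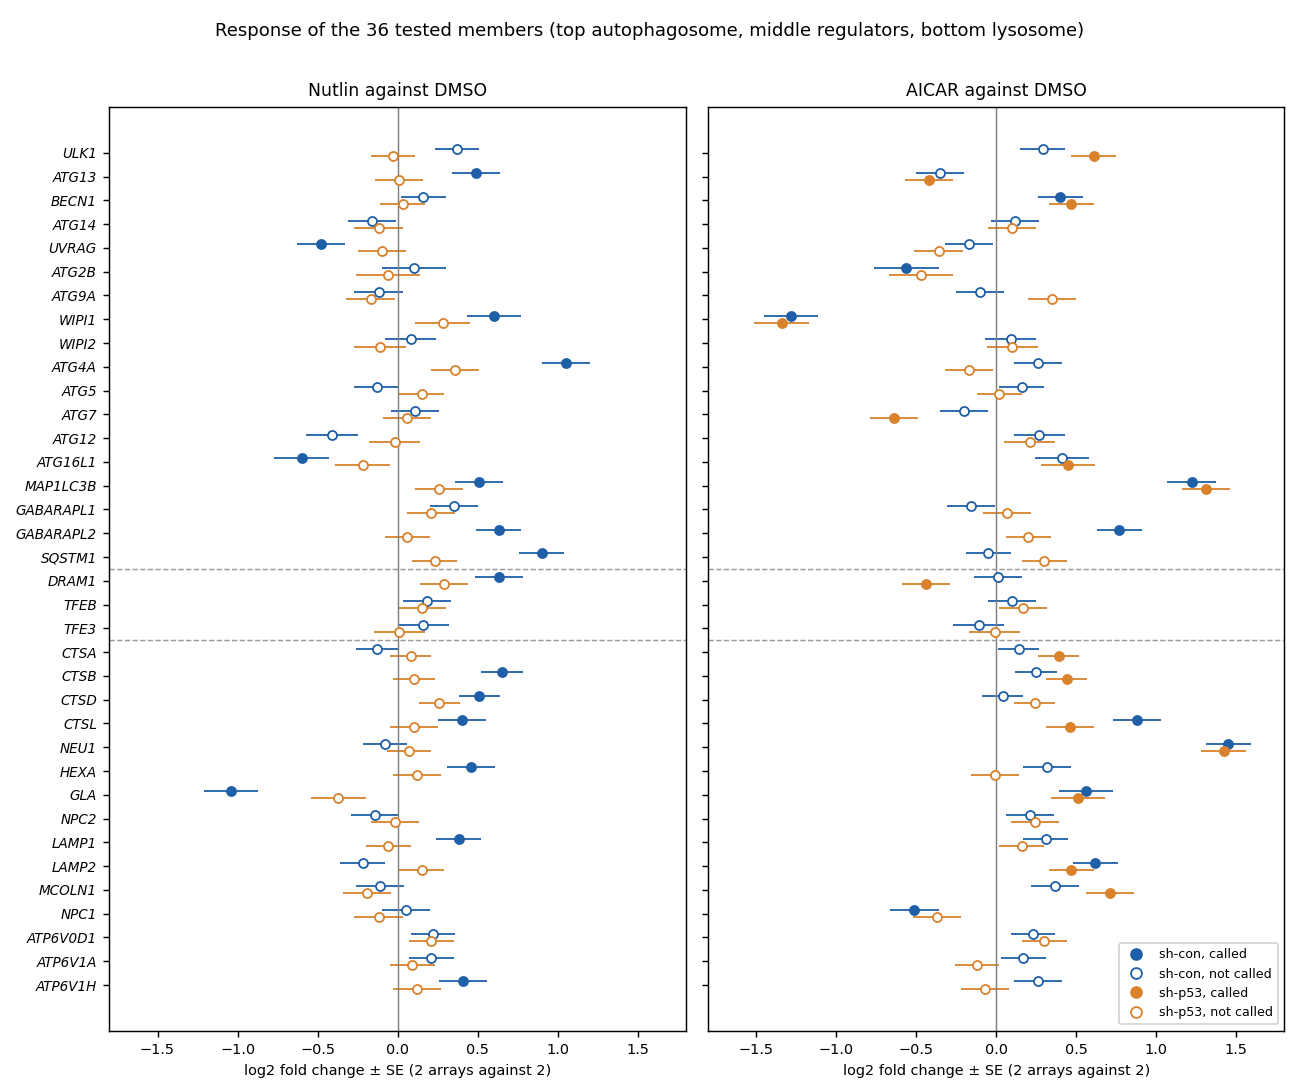
Log2 fold change against DMSO (x axis, ± SE of the fit, 2 arrays against 2) for the 36 tested members, with Nutlin on the left and AICAR on the right. Blue is sh-con and orange sh-p53, filled points were called at an adjusted p under 0.05, and dashed lines part autophagosome genes, regulators and lysosomal genes; with Nutlin all 16 filled points are blue, and with AICAR the filled points of NEU1, MAP1LC3B and WIPI1 of both lines lie side by side.

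The initiation complex is the first step of autophagosome formation. ULK1 is its kinase, regulated by AMPK and mTORC1. In DMSO the control line read 6.74 and 6.81 and the p53-hairpin line 6.96 and 6.64. Nutlin arrays gave 7.09 and 7.20 for the former and 6.75 and 6.78 for the latter. Under AICAR they gave 7.01 and 7.11, and 7.36 and 7.47. Both sh-con Nutlin arrays lay above all 4 DMSO arrays, and that change, from a mean of 6.78 to 7.14 in sh-con, was not called. All 4 AICAR arrays lay above all 4 DMSO arrays too. The rise passed in sh-p53, at 0.61 ± 0.14 (adjusted p = 0.00221), a call lost without sh-p53 DMSO array 2 (0.058), and in sh-con the change was 0.29 ± 0.14 (adjusted p = 0.114).

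ATG13 is the scaffold that links ULK1 to its partners. Solvent-treated arrays measured 8.45 and 8.28 (sh-con) and 8.30 and 8.45 (sh-p53). Nutlin-treated arrays measured 8.88 and 8.83 (sh-con) and 8.45 and 8.32 (sh-p53). AICAR-treated arrays measured 8.12 and 7.90 (sh-con) and 7.81 and 8.11 (sh-p53). The sh-con Nutlin pair was the highest of the 6 groups and the 4 AICAR arrays were the lowest. ATG13 rose by 0.49 ± 0.15 with Nutlin in sh-con (adjusted p = 0.0181), a call lost after median centring (0.0611) and without sh-con DMSO array 2 or either sh-con Nutlin array (adjusted p = 0.0734 to 0.127). It fell by 0.42 ± 0.15 with AICAR in sh-p53, which did not pass without either sh-p53 DMSO array or sh-p53 AICAR array 1 (adjusted p = 0.0598 to 0.304).

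The lipid kinase complex makes the phosphoinositide PI3P on the forming membrane. BECN1, its core scaffold, rose with AICAR by 0.40 ± 0.14 in sh-con and 0.47 ± 0.14 in sh-p53 (adjusted p = 0.0321 and 0.0141). Both calls were lost after median centring (0.239 and 0.149). The first was lost also with only the compared groups in the fit (0.0606) and without either sh-con DMSO array or sh-con AICAR array 1 (0.115 to 0.127), and the second without sh-p53 DMSO array 1 or either sh-p53 AICAR array (0.0532 to 0.124). UVRAG, a subunit of the endosomal form of the complex, fell by 0.48 ± 0.15 with Nutlin in sh-con, no longer called without sh-con DMSO array 1 (0.202) or sh-con Nutlin array 2 (0.161). ATG14, which directs the complex to the autophagosome, passed in none of the 9 comparisons, and its 12 values ran from 7.27 to 7.91.

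WIPI1, a PI3P-binding protein of the early autophagosome, had the widest range of all members. Control-line values were 9.09 and 9.11 with DMSO, 9.87 and 9.53 with Nutlin, and 7.98 and 7.66 with AICAR. Values of the p53-hairpin line were 8.93 and 8.71, 9.21 and 8.97, and 7.26 and 7.69 in the same order. The 4 AICAR arrays were the lowest of the 12 in both lines, and the sh-con Nutlin pair was the highest. WIPI1 fell with AICAR by 1.28 ± 0.17 in sh-con (adjusted p = 1.76e-05) and by 1.34 ± 0.17 in sh-p53 (adjusted p = 1.16e-05), and the responses differed between the lines by -0.06 (95% interval -0.58 to 0.45). It rose by 0.60 ± 0.17 with Nutlin in sh-con (adjusted p = 0.0155), no longer called without either sh-con DMSO array or sh-con Nutlin array 1 (0.057 to 0.139). Its level with Nutlin exceeded that with AICAR by 1.88 ± 0.17 in sh-con and 1.62 ± 0.17 in sh-p53.

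WIPI2, the close relative of WIPI1 that recruits the conjugation machinery, passed in none of the 9 comparisons, and its log2 fold changes with the compounds lay between -0.11 and 0.10. ATG2B is a lipid transfer protein that feeds the growing membrane. Its sh-con arrays held 7.62 and 7.43 under DMSO, 7.74 and 7.51 under Nutlin and 7.31 and 6.62 under AICAR. Its sh-p53 arrays held 7.63 and 7.12, then 7.38 and 7.25, then 6.80 and 7.02. The 2 sh-con AICAR arrays differed from each other, array 2 being the lowest of the 12 and array 1 lying above several sh-p53 arrays. ATG2B fell by 0.56 ± 0.20 with AICAR in sh-con (adjusted p = 0.0377), which did not pass without sh-con AICAR array 2 (0.484), either sh-con DMSO array (0.0552 to 0.209), after quantile normalisation again (0.0677) or without the filter on dim genes (0.0505). Its probe sets disagreed in part, the dimmer one giving -0.36 there, and in sh-p53 0.06 where the one used gave -0.47. ATG9A, the transmembrane protein of the vesicles that seed the membrane, passed in no response to a compound against DMSO. It differed between the compounds in sh-p53, lower with Nutlin by 0.52 ± 0.15, which missed the threshold after median centring (0.0702) and without sh-p53 Nutlin array 1 or sh-p53 AICAR array 2 (0.0736 to 0.0798).

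The conjugation system attaches ATG8 proteins to the membrane lipid. ATG4A is a protease that trims ATG8 proteins. In DMSO the control line read 6.44 and 6.17 and the p53-hairpin line 6.29 and 6.48. Nutlin arrays gave 7.34 and 7.37 for the former and 6.90 and 6.58 for the latter. Under AICAR they gave 6.61 and 6.51, and 6.23 and 6.20. The sh-con Nutlin pair stood above all other arrays. ATG4A rose by 1.05 ± 0.15 with Nutlin in sh-con (adjusted p = 3.34e-05), the largest rise among members there, and in sh-p53 the change was 0.36 ± 0.15 (adjusted p = 0.715). The response was lower in sh-p53 by 0.69 ± 0.21, which did not pass over all genes (adjusted p = 0.0521).

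ATG16L1 is the platform on which ATG12 and ATG5 act. Solvent-treated arrays measured 8.29 and 8.15 (sh-con) and 8.21 and 8.21 (sh-p53). Nutlin-treated arrays measured 7.67 and 7.57 (sh-con) and 8.10 and 7.87 (sh-p53). AICAR-treated arrays measured 8.90 and 8.36 (sh-con) and 8.50 and 8.81 (sh-p53). The sh-con Nutlin pair was the lowest and the 4 AICAR arrays the highest. It fell by 0.60 ± 0.17 with Nutlin in sh-con, no longer called without sh-con DMSO array 1 (0.112) or sh-con Nutlin array 2 (0.0927). It rose by 0.45 ± 0.17 with AICAR in sh-p53 (adjusted p = 0.0474), a call lost after median centring (0.252), without the filter on dim genes (0.058), and without either sh-p53 DMSO array or sh-p53 AICAR array 2 (0.135 to 0.279).

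ATG7 is the E1-like enzyme that activates ATG12 and ATG8 proteins. Control-line values were 7.59 and 7.33 with DMSO, 7.70 and 7.44 with Nutlin, and 7.36 and 7.16 with AICAR. Values of the p53-hairpin line were 7.49 and 7.55, 7.69 and 7.47, and 6.78 and 6.99 in the same order. The sh-p53 AICAR pair was the lowest of all. ATG7 fell by 0.64 ± 0.15 with AICAR in sh-p53 (adjusted p = 0.00333), and its difference in sh-con was -0.20 ± 0.15 (adjusted p = 0.306).

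ATG12 is the ubiquitin-like protein joined to ATG5. Its sh-con arrays held 7.08 and 7.15 under DMSO, 6.64 and 6.76 under Nutlin and 7.61 and 7.16 under AICAR. Its sh-p53 arrays held 7.05 and 7.11, then 7.21 and 6.90, then 7.21 and 7.37. Both sh-con Nutlin arrays lay below the other 10 arrays, but no response against DMSO passed. ATG12 differed between the compounds in sh-con, lower with Nutlin by 0.68 ± 0.16 (adjusted p = 0.00259), not called without sh-con AICAR array 1 (0.0508). ATG5 passed in none of the 9 comparisons, with values from 7.73 to 8.24.

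ATG8 proteins coat the autophagosome and hold its cargo receptors. MAP1LC3B encodes the LC3B protein used as the autophagosome marker. In DMSO the control line read 6.97 and 7.26 and the p53-hairpin line 6.99 and 7.17. Nutlin arrays gave 7.73 and 7.52 for the former and 7.48 and 7.21 for the latter. Under AICAR they gave 8.38 and 8.30, and 8.30 and 8.49. The 4 AICAR arrays stood above all others, with the lines overlapping. MAP1LC3B rose with AICAR 2.33-fold in sh-con (1.22 ± 0.15, adjusted p = 7.06e-06) and 2.48-fold in sh-p53 (1.31 ± 0.15, adjusted p = 3.81e-06). It rose by 0.51 ± 0.15 with Nutlin in sh-con (adjusted p = 0.0176), which missed the threshold after median centring (0.0505) and without sh-con DMSO array 1 (0.221) or sh-con Nutlin array 1 (0.122). MAP1LC3B has a near-identical relative, MAP1LC3B2, and its probe set may measure both.

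GABARAPL2 belongs to the GABARAP branch of the family. Solvent-treated arrays measured 9.29 and 9.20 (sh-con) and 9.19 and 9.12 (sh-p53). Nutlin-treated arrays measured 9.95 and 9.81 (sh-con) and 9.37 and 9.05 (sh-p53). AICAR-treated arrays measured 10.06 and 9.98 (sh-con) and 9.28 and 9.44 (sh-p53). The 4 treated sh-con arrays stood above the other 8. GABARAPL2 rose in sh-con by 0.63 ± 0.14 with Nutlin (adjusted p = 0.00271) and by 0.77 ± 0.14 with AICAR (adjusted p = 0.000347). In sh-p53 the changes were 0.06 and 0.20, and the differences between the lines of -0.58 ± 0.20 with Nutlin and -0.57 ± 0.20 with AICAR did not pass (adjusted p = 0.0993 and 0.21). GABARAPL1 passed in no response against DMSO, and its changes with the compounds ran from -0.16 to 0.35.

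SQSTM1 encodes p62, the receptor that carries ubiquitinated cargo to LC3. Control-line values were 9.61 and 9.49 with DMSO, 10.41 and 10.49 with Nutlin, and 9.53 and 9.47 with AICAR. Values of the p53-hairpin line were 9.27 and 9.57, 9.72 and 9.58, and 9.68 and 9.77 in the same order. Both sh-con Nutlin arrays stood apart from the other 10 arrays. SQSTM1 rose by 0.90 ± 0.14 with Nutlin in sh-con (adjusted p = 9.48e-05), while with AICAR it stood at -0.05 ± 0.14 (adjusted p = 0.786). The difference of its Nutlin response between the lines, at -0.67 ± 0.20, passed narrowly (adjusted p = 0.048). That call was lost after median centring (0.102) and without sh-con DMSO array 1 or 2, sh-p53 DMSO array 2, or any 1 of the 4 Nutlin arrays (0.0672 to 0.212).

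**Figure D2:**
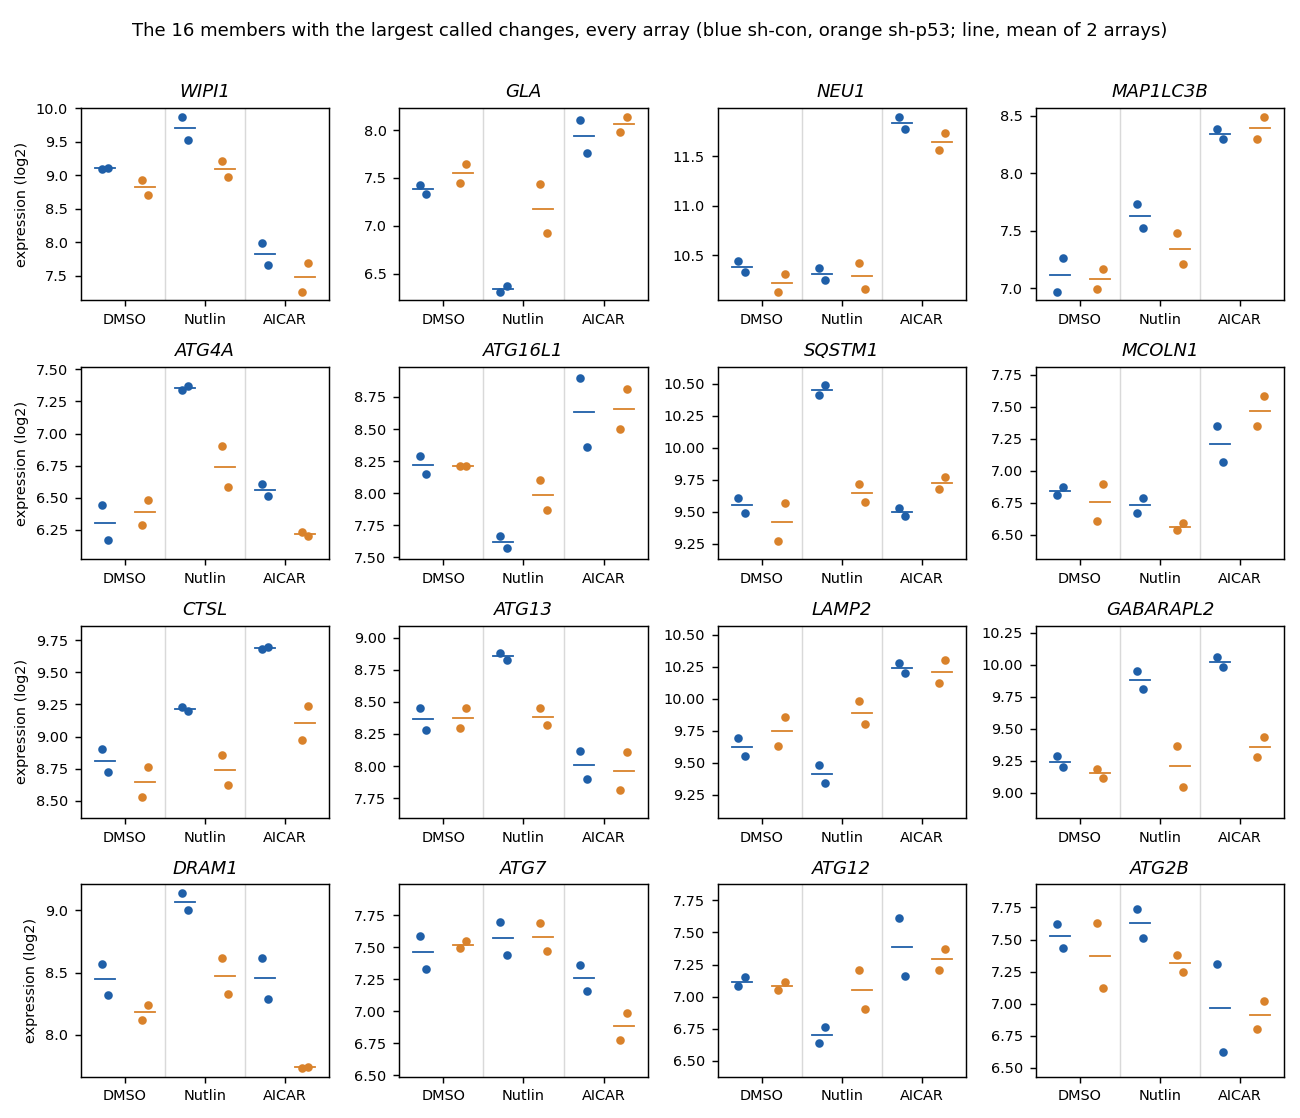
Expression on the log2 scale (y axis) in each of the 12 arrays for the 16 members with the largest called changes, with DMSO, Nutlin and AICAR along the x axis, blue points for sh-con, orange for sh-p53 and a line at the mean of 2 arrays. NEU1 and MAP1LC3B are high in all 4 AICAR arrays and WIPI1 is low in them, and SQSTM1 and ATG4A are high in the 2 sh-con Nutlin arrays.

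Among the regulators, DRAM1 is a lysosomal membrane protein induced by p53. Its sh-con arrays held 8.57 and 8.32 under DMSO, 9.14 and 9.00 under Nutlin and 8.62 and 8.29 under AICAR. Its sh-p53 arrays held 8.12 and 8.24, then 8.62 and 8.33, then 7.73 and 7.74. The sh-con Nutlin pair was the highest and the sh-p53 AICAR pair the lowest. DRAM1 rose by 0.63 ± 0.15 with Nutlin in sh-con (adjusted p = 0.00541), which did not pass without sh-con DMSO array 2 (0.0694). It fell by 0.44 ± 0.15 with AICAR in sh-p53 (adjusted p = 0.0311), no longer called without either sh-p53 DMSO or either sh-p53 AICAR array (0.0652 to 0.174), and the difference of the AICAR response between the lines did not pass (-0.46 ± 0.22, adjusted p = 0.402). TFEB, with values from 5.49 to 5.92, and TFE3, from 6.55 to 7.13, passed in none of the 9 comparisons. Their activity is set mainly by phosphorylation and nuclear entry, which arrays do not measure.

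Of the 7 lysosomal enzymes, Nutlin in sh-con raised 4 and lowered 1, 3 rose with AICAR in sh-con and 5 rose with AICAR in sh-p53, where higher calls made up 11.3%, 14.6% and 16.2% of all genes in the same order. After median centring 2, 2 and 1 of these rises were called. Those with Nutlin came to 2 also with any 1 of the 4 arrays left out, those with AICAR in sh-con to 2 without either DMSO array or AICAR array 1, and those with AICAR in sh-p53 to 1 without DMSO array 1 or AICAR array 2 and 3 without either of the other two. NEU1 is the sialidase that trims sialic acid from glycoproteins. In DMSO the control line read 10.44 and 10.33 and the p53-hairpin line 10.13 and 10.31. Nutlin arrays gave 10.37 and 10.25 for the former and 10.42 and 10.16 for the latter. Under AICAR they gave 11.90 and 11.78, and 11.56 and 11.74. The 4 AICAR arrays stood above the other 8. NEU1 rose with AICAR 2.73-fold in sh-con (1.45 ± 0.14, adjusted p = 5.54e-07) and 2.68-fold in sh-p53 (1.42 ± 0.14, adjusted p = 7.99e-07). The difference between the lines was -0.02 (95% interval -0.45 to 0.40). The other 2 probe sets of NEU1 gave 1.43 (sh-con) and 1.37 (sh-p53) with AICAR, and with Nutlin in sh-con NEU1 stood at -0.08 ± 0.14 (adjusted p = 0.686).

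GLA, the alpha-galactosidase deficient in Fabry disease, moved in opposite directions with the compounds in sh-con. Solvent-treated arrays measured 7.43 and 7.33 (sh-con) and 7.45 and 7.65 (sh-p53). Nutlin-treated arrays measured 6.31 and 6.37 (sh-con) and 7.44 and 6.92 (sh-p53). AICAR-treated arrays measured 8.11 and 7.76 (sh-con) and 7.98 and 8.14 (sh-p53). The sh-con Nutlin pair was the lowest and the 4 AICAR arrays the highest. GLA fell by 1.04 ± 0.17 with Nutlin in sh-con (adjusted p = 0.000167). It rose with AICAR by 0.56 ± 0.17 in sh-con (adjusted p = 0.0161) and 0.51 ± 0.17 in sh-p53 (adjusted p = 0.0259). Both rises were lost after median centring (0.0906 and 0.154), the first also without either sh-con DMSO array or sh-con AICAR array 1 (0.0512 to 0.114), and the second without sh-p53 DMSO array 1 or either sh-p53 AICAR array (0.0531 to 0.159). The Nutlin response differed between the lines by 0.67 ± 0.24, which did not pass (adjusted p = 0.114).

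CTSL is one of the cathepsins, the proteases of the lysosome. Control-line values were 8.90 and 8.72 with DMSO, 9.23 and 9.20 with Nutlin, and 9.68 and 9.70 with AICAR. Values of the p53-hairpin line were 8.53 and 8.76, 8.86 and 8.62, and 8.97 and 9.24 in the same order. The sh-con AICAR pair was the highest. CTSL rose by 0.88 ± 0.15 with AICAR in sh-con (adjusted p = 0.00015) and by 0.46 ± 0.15 in sh-p53 (adjusted p = 0.0204), a call lost after median centring (0.17) and without sh-p53 DMSO array 1 (0.172) or sh-p53 AICAR array 2 (0.163). Its rise of 0.40 ± 0.15 with Nutlin in sh-con (adjusted p = 0.048) was lost after median centring (0.134), without the filter on dim genes (0.0528) and with any 1 of the 4 arrays left out (0.0951 to 0.233).

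CTSB, a cysteine protease, rose by 0.65 ± 0.13 with Nutlin in sh-con (adjusted p = 0.00139), from 10.30 and 10.26 to 10.96 and 10.90. CTSD, the aspartic protease of the lysosome, rose by 0.51 ± 0.13 there (adjusted p = 0.00607), from 9.98 and 9.95 to 10.51 and 10.45. With AICAR in sh-p53, CTSB rose by 0.44 ± 0.13, which missed the threshold after median centring (0.179) and without either sh-p53 DMSO array or sh-p53 AICAR array 2 (0.0629 to 0.113). CTSA, the protective protein that stabilises NEU1 in a complex, rose there by 0.39 ± 0.13, a call lost after median centring (0.255) and with any 1 of the 4 arrays left out (0.0538 to 0.122). HEXA, a subunit of beta-hexosaminidase, rose by 0.46 ± 0.15 with Nutlin in sh-con, which missed the threshold after median centring (0.0852) and with any 1 of the 4 arrays left out (0.0858 to 0.114). NPC2, the soluble sterol carrier of the lumen, passed in none of the 9 comparisons.

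Of the 4 lysosomal membrane proteins, 1 rose with Nutlin in sh-con. With AICAR 1 rose and 1 fell in sh-con, and 2 rose in sh-p53. Of all genes, 11.3%, 14.6% and 16.2% were called higher in the same order, and 18.9%, 23.2% and 21.6% lower. After median centring the membrane proteins had 0 calls with Nutlin in sh-con, against 27.5% of all genes called. With AICAR they then had 1 rise and 1 fall in each line, where 36.4% (sh-con) and 34.5% (sh-p53) of all genes were called. LAMP2 is a coat protein needed for fusion and for chaperone-mediated autophagy. Its sh-con arrays held 9.69 and 9.55 under DMSO, 9.48 and 9.34 under Nutlin and 10.28 and 10.20 under AICAR. Its sh-p53 arrays held 9.63 and 9.86, then 9.98 and 9.80, then 10.12 and 10.30. The 4 AICAR arrays were the highest and the sh-con Nutlin pair the lowest. LAMP2 rose with AICAR by 0.62 ± 0.14 in sh-con (adjusted p = 0.00218) and by 0.47 ± 0.14 in sh-p53 (adjusted p = 0.0152), the latter call lost after median centring (0.152) and without sh-p53 DMSO array 1 (0.145) or sh-p53 AICAR array 2 (0.103).

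MCOLN1 is a calcium channel whose opening releases TFEB to the nucleus. In DMSO the control line read 6.81 and 6.87 and the p53-hairpin line 6.61 and 6.90. Nutlin arrays gave 6.67 and 6.79 for the former and 6.54 and 6.59 for the latter. Under AICAR they gave 7.35 and 7.07, and 7.35 and 7.58. The 4 AICAR arrays stood above the other 8. MCOLN1 rose by 0.71 ± 0.15 with AICAR in sh-p53 (adjusted p = 0.00117), and in sh-con the change was 0.37 ± 0.15 (adjusted p = 0.0572).

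LAMP1, the companion coat protein of LAMP2, rose by 0.38 ± 0.14 with Nutlin in sh-con, a call lost after median centring (0.137) and with any 1 of the 4 arrays left out (0.114 to 0.206). NPC1, the membrane transporter that passes cholesterol out of the lysosome, fell by 0.51 ± 0.15 with AICAR in sh-con (adjusted p = 0.0111), against the direction of the other lysosomal members called there. That call was lost without sh-con DMSO array 1 (0.118) or sh-con AICAR array 2 (0.12). Among the subunits of the proton pump that acidifies the lumen, ATP6V1H rose by 0.41 ± 0.15 with Nutlin in sh-con (adjusted p = 0.0491), which missed the threshold after median centring (0.139), without the filter on dim genes (0.0552) and with any 1 of the 4 arrays left out (0.123 to 0.2). ATP6V0D1 and ATP6V1A passed in none of the 9 comparisons, and with AICAR no pump subunit among the members passed in either line.

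Setting the compounds against each other showed where the members parted. In sh-con, 10 members were higher and 8 lower with Nutlin than with AICAR, 50% of the 36, against 34.8% of all genes (17.9% higher and 16.9% lower). Leaving out sh-con AICAR array 2 gave 5 higher and 8 lower, and leaving out sh-con Nutlin array 1 gave 6 and 6, so the balance of directions changed with single arrays. In sh-p53, 5 were higher and 8 lower, or 36.1%, against 34.6% of all genes (19% higher and 15.6% lower), which became 3 and 7 without sh-p53 Nutlin array 1 and 4 and 5 without sh-p53 AICAR array 2. After median centring the share of all calls that were higher went from 55% to 69.2% in sh-p53. WIPI1 was higher with Nutlin and GLA, NEU1 and MAP1LC3B were lower in both lines, under every alternative setting and with any single array left out. NEU1 was lower with Nutlin by 1.53 ± 0.14 in sh-con and by 1.36 ± 0.14 in sh-p53, and GLA by 1.59 ± 0.17 and 0.88 ± 0.17. These comparisons use the same treated arrays as those against DMSO and add no independent measurement.

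The autophagosome and lysosomal members were then compared as classes. With AICAR, 4 of 15 lysosomal members rose and 1 fell in sh-con, and in sh-p53 7 rose and 8 did not pass, where 14.6% and 16.2% of all genes were called higher. After median centring 3 lysosomal members were higher and 1 lower in sh-con, and in sh-p53 only NEU1 and MCOLN1 were higher, with NPC1 lower. The same 2 were the only rises in sh-p53 without DMSO array 1 or without AICAR array 2, while quantile normalisation again gave 10 rises in sh-con and 9 in sh-p53. Of the 18 tested autophagosome members, 3 rose and 2 fell in sh-con, and 4 rose and 3 fell in sh-p53, which after median centring became 2 and 3, and 2 and 5. Lysosomal members had a median log2 fold change of 0.26 in sh-con and 0.30 in sh-p53, against 0.10 and 0.10 for autophagosome members and 0.04 and 0.07 for all genes. In sh-con 14 of 15 lysosomal members had a positive difference, and in sh-p53 11 of 15. These counts hold on the deposited scale. Median centring shifted the changes of all genes by a median of -0.141 in sh-con and -0.152 in sh-p53. The 7 enzymes ranged from 0.04 to 1.45 in sh-con and from -0.01 to 1.42 in sh-p53, and the 3 pump subunits from 0.17 to 0.26 and from -0.12 to 0.30.

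With Nutlin in sh-con, 6 of 15 lysosomal members rose and 1 fell, and 6 of 18 autophagosome members rose and 2 fell, against 11.3% of all genes higher and 18.9% lower. Of the lysosomal rises, those of CTSB and CTSD alone were called after median centring and with any 1 of the 4 arrays left out. After centring 4 autophagosome members were higher and 2 lower, and leaving out 1 array gave 3 to 5 higher and 0 to 2 lower, with 3 higher without sh-con Nutlin array 1 and 0 lower without sh-con DMSO array 1 or Nutlin array 2. The medians were 0.21 and 0.13, a gap of 0.07 that became -0.01 without sh-con DMSO array 1. The gap with AICAR was 0.16 for sh-con and 0.19 for sh-p53. It stayed between 0.12 and 0.23 over both lines with any single array left out. The gap computed for single arrays, with each gene set to its own mean, differed between the 2 arrays of a group with a pooled SD of 0.074. It read -0.06 and -0.03 in sh-con DMSO, 0.11 and 0.11 in sh-con Nutlin, and 0.14 and 0.15 in sh-con AICAR. Both treated pairs of sh-con thus lay above its DMSO pair. In sh-p53 it read -0.17 and 0.01 in DMSO, -0.07 and -0.03 in Nutlin and -0.01 and 0.17 in AICAR. The sh-p53 DMSO pair overlapped each of the treated pairs. The members were chosen with earlier results known and no test of the classes was made.

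**Figure D3:**
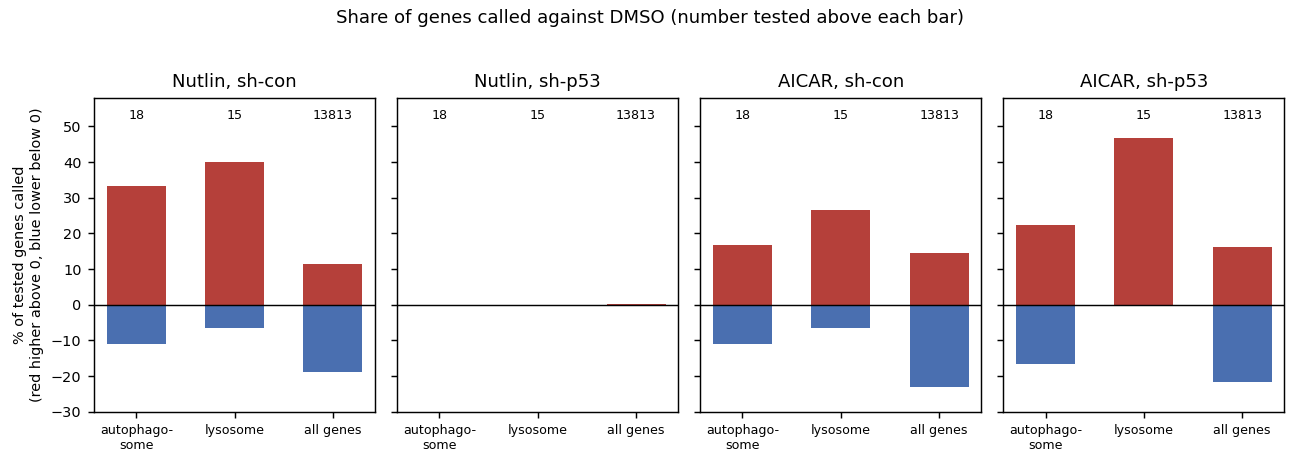
Share of tested genes called higher (red, above 0) and lower (blue, below 0) against DMSO on the y axis in percent, for the 18 autophagosome members, the 15 lysosomal members and all 13813 genes, in a panel for each compound and line. The panel for Nutlin in sh-p53 is nearly empty because no member and 0.0796% of all genes were called. With AICAR in sh-p53, 7 of 15 lysosomal members were called higher on the deposited scale drawn here, and 2 after median centring.

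**Figure D4:**
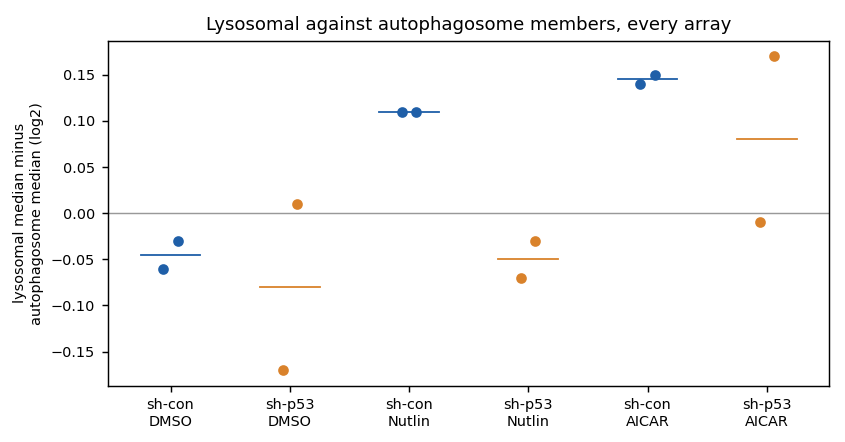
Median of the lysosomal members minus median of the autophagosome members in each array, on the log2 scale with each gene set to its mean over the 12 arrays (y axis), by group (x axis), with a line at the mean of 2 arrays. The sh-con AICAR arrays lie at 0.14 and 0.15, the sh-con Nutlin arrays at 0.11 and 0.11 and the sh-con DMSO arrays at -0.06 and -0.03. The sh-p53 DMSO pair overlaps both treated pairs of that line.

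Beyond the 37 members, 132 further genes of the pathway were listed, of which 122 were measured and 114 tested. Single calls of these further genes were not followed under the alternative settings or with arrays left out. With Nutlin in sh-con 21 rose and 7 fell, 24.6% of the 114 against 30.3% of all genes. GM2A, the activator protein that presents gangliosides to beta-hexosaminidase, rose from 9.12 and 9.07 to 10.53 and 10.68, or by 1.51 ± 0.13 (adjusted p = 8.14e-08). VAMP8, a SNARE of the autophagosome and lysosome fusion step, rose by 1.08 ± 0.13, and CTSC, the protease that activates granule serine proteases, fell by 1.03 ± 0.13. OSTM1, the partner of the lysosomal chloride exchanger, rose by 0.84 ± 0.15. In sh-p53 none of the 114 passed with Nutlin by limma, where 2 higher and 1 lower had an unadjusted p under 0.05. The Nutlin response differed between the lines for these 4 of the 114, or 3.51%, under the 7.4% of all genes, lower in sh-p53 for GM2A (-1.26 ± 0.19, adjusted p = 0.00016), OSTM1 (-0.80 ± 0.21, adjusted p = 0.028) and VAMP8 (-0.69 ± 0.19, adjusted p = 0.0299) and higher for CTSC (1.00 ± 0.19, adjusted p = 0.00165).

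With AICAR 21 of these genes rose and 16 fell in sh-con, and 19 rose and 18 fell in sh-p53, 32.5% in each line against 37.8% of all genes. RPTOR, the mTORC1 subunit that binds its substrates, fell from 7.85 and 7.89 to 6.08 and 5.82 in sh-con, by 1.92 ± 0.14 (adjusted p = 3.06e-08), and by 1.56 ± 0.14 in sh-p53. FNIP1, a partner of folliculin in nutrient sensing at the lysosome, fell by 1.20 ± 0.15 and 1.00 ± 0.15. SLC17A5, the lysosomal sialic acid exporter, fell by 1.40 ± 0.19 and 1.36 ± 0.19, while NEU1, the enzyme that releases sialic acid, rose in the same arrays. SMPD1, the acid sphingomyelinase, rose by 0.88 ± 0.15 in sh-con and 1.49 ± 0.15 in sh-p53, GM2A by 1.38 ± 0.13 and 0.74 ± 0.13, and FUCA1, the lysosomal fucosidase, by 1.10 ± 0.14 and 0.77 ± 0.14. ATG10, the enzyme that joins ATG12 to ATG5, fell by 1.05 ± 0.17 and 1.43 ± 0.17. Other genes of these classes went the other way. The lysosomal enzyme ARSB went from a mean of 9.6 with DMSO to 8.53 with AICAR in sh-con, and from 9.57 to 8.6 in sh-p53. The autophagosome gene ATG2A went from 6.76 to 7.39 in sh-con and from 6.54 to 7.77 in sh-p53. Of the 53 further lysosomal genes tested, 12 rose and 6 fell in sh-con and 12 rose and 5 fell in sh-p53. Of the 31 further autophagosome genes, 5 rose and 5 fell in sh-con and 3 rose and 7 fell in sh-p53. Across all genes, the control line had 14.6% called higher with AICAR, with 23.2% called lower. The p53-hairpin line had 16.2% called higher, with 21.6% called lower. Counted either way for the control line, 34% of the further lysosomal genes were called. The further autophagosome genes came to 32.3%, and both shares lay under the 37.8% of all genes.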

How the data were processed

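Expression was measured on Affymetrix Human Gene arrays. The deposited values are on a log2 scale from 2.14 to 14.33, made by the authors with RMA in Partek per the submitters' processing notes, whose versions are not given in the sources used here. Of 33297 probe sets 19460 had a single annotated symbol, 1754 several and 12083 none listed. The brightest probe set stood for each of 18417 genes, and genes with a mean below the 25th percentile (4.58) were left out. One limma fit (version 3.58.1 in R 4.3.3) of 6 group means over 12 arrays gave 9 comparisons. Errors are standard errors of the fit, for 2 arrays against 2, and p-values were adjusted by Benjamini-Hochberg over all 13813 genes. The small number of arrays limits the precision. The procedure was tried on simulated data with independent noise in each array and changes in a small share of genes. These data differ from that setting, so the trial does not bear on the calls given here. Values in every array are given for the members with the largest called changes, up to 16, and for ULK1, which was added after its values were seen; of the other pathway genes, up to 6 called genes per comparison could be named. The members and lists were chosen with earlier results of these data known. Alternatives were the scaling, filter, probe set rule, arrays in the fit, prior, the replicate number as a block, the class of DRAM1 and leaving out each array.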

Additional observations from a re-analysis of the deposited data

Results flagged for a closer look

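The Nutlin response of SQSTM1 differed between the lines, by -0.67 ± 0.20 on the log2 scale for sh-p53 minus sh-con (limma adjusted p = 0.048). It rose by 0.90 ± 0.14 in sh-con, and in sh-p53 the difference was 0.23 ± 0.14, with both Nutlin arrays above both DMSO arrays in each line. The adjusted p ran from 0.0672 to 0.212 without any 1 of 7 of the 8 arrays involved, and the call held without sh-p53 DMSO array 1. It was lost after median centring (0.102).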

How the results depend on the processing

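Of 73 calls of single members over the 9 comparisons, 34 held under every alternative and 0 reversed. Counts of members called rose under some settings and fell under others. Quantile normalisation again gave 20 with Nutlin in sh-con and 20 with AICAR in sh-p53, where 29.8% and 39.3% of all genes were called. The filter at the 50th percentile gave 18 and 17, and only the compared groups in the fit gave 18 and 18. Median centring gave 11 with AICAR in sh-p53. With Nutlin in sh-con, 16 members were called, 10 after median centring and 8 to 9 with 1 array left out. With AICAR in sh-con, 10 were called, 16 after quantile normalisation again and 6 to 11 with 1 array left out. With AICAR in sh-p53, 15 were called and 6 to 10 with 1 array left out. The difference of the Nutlin response between the lines gave 1 call, 0 after median centring, 5 after quantile normalisation again, 2 with the filter at the 50th percentile, 2 with only the compared groups in the fit, 3 with a trend in the prior and 0 to 1 with 1 array left out. With 1 array left out, the lysosomal minus autophagosome median ran from -0.01 to 0.08 for Nutlin in sh-con, -0.03 to 0.07 for Nutlin in sh-p53, -0.06 to 0.08 and -0.08 to 0.09 for the Nutlin and AICAR differences between the lines, and -0.10 to 0.15 for Nutlin against AICAR in sh-con. The cause of these shifts was not tested. The difference between replicates 1 and 2 was correlated over genes between groups, with 7 of 15 group pairs above 0.1. Of the other pairs, sh-p53 DMSO with sh-con Nutlin stood at 0.0277 and the rest were negative. Every negative pair held sh-p53 DMSO or sh-p53 AICAR, and these groups correlated with each other at 0.264. The correlations ran from -0.558 (sh-con AICAR with sh-p53 AICAR) to 0.567 (sh-p53 Nutlin with sh-con AICAR). Replicate numbers thus did not mark 1 common block, but differences between duplicates were shared in part between groups. The main fit took the arrays within groups as independent, so its p-values leave this sharing out. A block under another numbering was not tested. With the replicate number as a block, 15 members were called with Nutlin in sh-con, 10 and 16 with AICAR in sh-con and sh-p53, and 0 for the Nutlin difference between the lines (SQSTM1 adjusted p = 0.0552). The Nutlin count lost CTSL (adjusted p = 0.0527).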
